A study of Mus musculus with 14 samples.

Results

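The regions described here carried H3K4me3 in all 6 cultures of the study and no FLAG peak in any of them. H3K4me3 peaks of the 6 lists on chromosomes 1 to 19 were merged wherever they shared 1 bp, which gave 41556 regions. Of these, 21864 had a peak in all 6 lists, and 20956 of them covered under 4000 bp on average. The 6652 regions that overlapped no peak of the 6 FLAG lists were kept, which is 31.7% of the 20956. The members were chosen by the FLAG peak lists and by their mean H3K4me3 breadth, so the absence of FLAG is a description and not a finding.

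The cells were neural stem cells from the hindbrain of E15.5 mouse embryos, grown as neurospheres, which are floating spheres of dividing neural precursors. The 3 cultures called K27M-Tag had the genotype Nestin-cre; H3f3aLSL-K27M-Tag/+ and were all female. The 3 control cultures, called WT-Tag, had the genotype Nestin-cre; H3f3aLSL-WT-Tag/+, with replicates 1 and 2 female and replicate 3 male. Both genotypes thus carried the cre driver, which acts in neural precursors, and 1 tagged copy of H3f3a beside 1 untagged copy, so that untagged H3.3 was still made. Each culture gave 1 FLAG and 1 H3K4me3 library. No culture without the tag was used here, so the FLAG signal of untagged chromatin is not known. The labelled cell type could not be checked against marker genes, because the peak lists are in build mm9 and no annotation of that build was at hand. All regions are therefore given by mm9 position, without gene names or sequence.

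H3K4me3, trimethylation of lysine 4 on histone H3, is a mark of active and poised promoters and is usually laid down just downstream of transcription start sites. H3.3, the protein made from H3f3a, is a histone variant that is put into chromatin outside of DNA replication and is enriched at promoters, enhancers and transcribed genes. A FLAG peak marks a place where FLAG signal was recovered above background. It is read here as tagged H3.3, although no culture without the tag was used to check this. The K27M change replaces lysine 27 by methionine, a substitution known from childhood midline gliomas.

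For K27M-Tag replicates 1 to 3 the FLAG lists held 78070, 57589 and 88285 peaks, and for WT-Tag replicates 1 to 3 they held 32763, 47293 and 46680. Values below keep this order of replicates. The H3K4me3 lists held 31932 to 38720 peaks. The lists give no read totals. The most common background coverage, recovered from the deposited fold and p of each peak, lay between 2.77 and 3.5 fragments per base in the H3K4me3 libraries and between 3.09 and 3.6 in the FLAG libraries. Every list stopped near a deposited −log10 q of 2. Absence of a FLAG peak means that nothing passed that limit at this depth, not that tagged histone was absent.

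FLAG fell unevenly over the shared regions. FLAG in all 6 lists was found at 2804 regions under 4000 bp (13.4%), and FLAG in all 3 K27M-Tag lists but in no WT-Tag list at 3501 (16.7%). These are the classes with which the members are compared. The other 7999 regions (38.2%) had mixed patterns, among them 1902 with FLAG in exactly 1 K27M-Tag list and no WT-Tag list and 126 with FLAG in exactly 1 WT-Tag list and no K27M-Tag list. When the same number of top-scoring peaks was taken from every list (31932 for H3K4me3 and 32763 for FLAG), the members numbered 10081. Of the 908 shared regions at or above the limit of 4000 bp, 10 (1.10%) had no FLAG peak.

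Most members were short and simple. Their mean breadth, the covered length averaged over the 6 lists, ranged from 191 to 3965 bp with a median of 959 bp, and 1 member in 10 was under 398 bp and 1 in 10 over 2026 bp. In 5498 members (82.7%) every list had exactly 1 peak, and the largest number of peaks in 1 list was 6. Height was measured as the fragments piled up at the summit divided by the most common background coverage of the library, called relative summit height below. Its geometric mean over the 6 cultures ranged from 5.13 to 101.7 with a median of 25.4. The middle 50% of members lay between 13.4 and 52.4, so that weak and strong H3K4me3 were both well represented.

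The share of regions without FLAG fell with breadth and did not fall steadily with height. Of the shared regions with a mean breadth under 500 bp, 1213 of 2180 (55.6%) had no FLAG peak. The share was 42.2% from 500 to 1000 bp, 38.0% from 1000 to 1500 bp, 27.2% from 1500 to 2000 bp and 14.3% from 2000 to 3000 bp. From 3000 to 4000 bp it was 66 of 1463 (4.51%). By relative summit height, members made up 28.5% of regions under 10, 47.0% from 10 to 20, 43.4% from 20 to 40, 21.6% from 40 to 80 and 27.6% above 80. At heights under 10, regions with FLAG in all 6 lists were slightly more frequent than members, at 30.7%. A longer region gives more room for a FLAG peak to fall on it, and the FLAG overlap chose the classes, so these shares are given without a test.

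**Figure D1:**
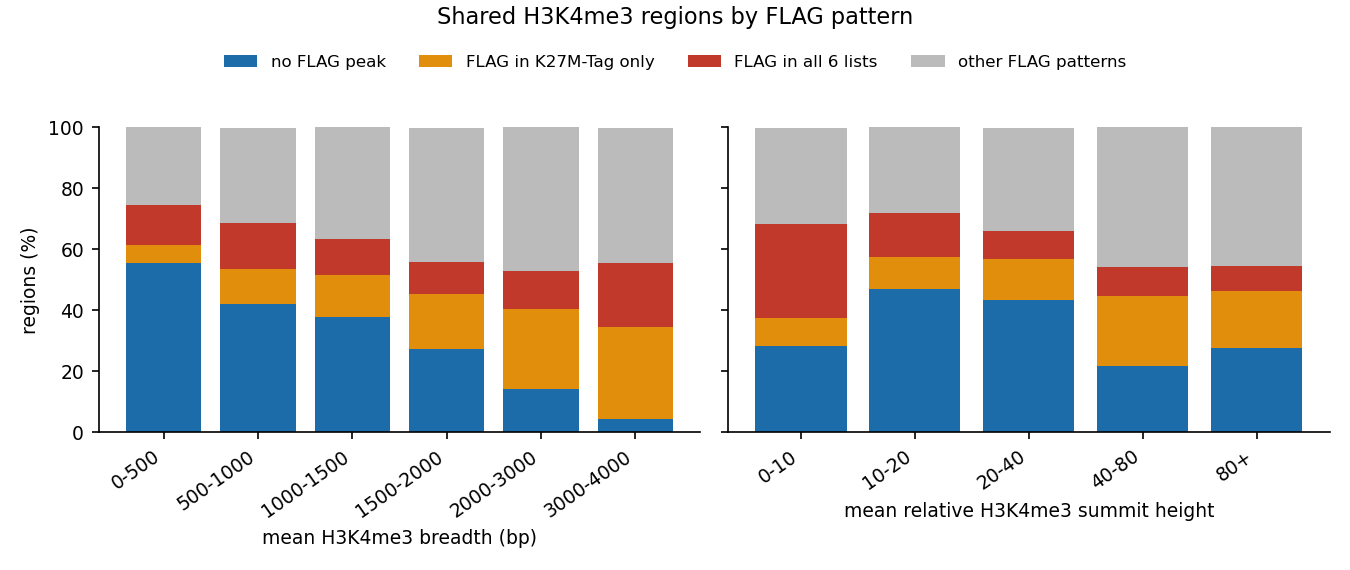
Stacked bars give the percent of the 20956 shared H3K4me3 regions under 4000 bp in each FLAG class. Bins are of mean breadth in bp (left) and of the geometric mean of relative summit height (right). The share without FLAG (blue) goes from 55.6% under 500 bp to 4.51% from 3000 to 4000 bp, while by height it peaks at 47.0% between 10 and 20.

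Members were narrower than both other classes in every culture. The members' median breadth was 1055, 1002 and 1035 bp for the K27M-Tag cultures, and for the WT-Tag cultures 833.5, 931 and 907 bp. Regions with FLAG in all 6 lists had medians of 1474, 1331.5 and 1480 bp (K27M-Tag) and of 1178, 1267.5 and 1165 bp (WT-Tag). Regions with FLAG in K27M-Tag only had 1977, 1903 and 1965 bp (K27M-Tag) and 1768, 1843 and 1774 bp (WT-Tag), the widest of the 3 classes in each culture.

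As a log2 difference of medians within a culture, members were below regions with FLAG in all lists by a mean of -0.45 ± 0.0588 (SD, n = 6), a ratio of 0.731, and below regions with FLAG in K27M-Tag only by -0.97 ± 0.0655 (SD, n = 6), a ratio of 0.512. Both differences were negative in 6 of 6 cultures. They are given as a description, without a test, because the overlap that set the classes depends on the length of a region and the rule also limits breadth. The first of them depended on how FLAG was looked for. When a FLAG peak counted only inside a fixed window of 1000 bp at the middle of the region, members were wider than regions with FLAG in all lists, by 0.39 on the log2 scale, while against regions with FLAG in K27M-Tag only the difference stayed negative, at -0.64.

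In height the members lay between the other classes. Their median relative summit height was 30.9, 31.8 and 28 for K27M-Tag, with 18.3, 25.5 and 24.4 for WT-Tag. For regions with FLAG in all lists the range over the 6 cultures was 13.8 to 20.4, and for regions with FLAG in K27M-Tag only it was 39.8 to 69.3. The members' log2 difference was 0.57 ± 0.0931 (SD, n = 6) against the former, higher in 6 of 6 cultures, and -1.09 ± 0.0605 (SD, n = 6) against the latter, lower in 6 of 6. Like those in breadth, these differences are given as a description, without a test. All 6 cultures were measured at the same regions and classes, so their agreement adds no independent support. Height was no part of the rule, but it goes with breadth, and how far the choice of members by overlap bears on it was not tested.

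Only the difference from regions with FLAG in K27M-Tag only kept its direction in every alternative run, although it shrank to -0.10 in the top-scoring 50% of peaks. Against regions with FLAG in all lists it was 0.0034 in that subset and 0.08 without the limit on breadth. It turned to -0.10 when regions with a FLAG peak within 1000 bp were no longer members.

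The difference in breadth was also examined at like height, a comparison added after the data had been seen. Among regions with a relative summit height of 5 to 10 in a culture, members had a median breadth of 412 bp ± 56.8 (SD, n = 6), against 548 bp ± 98.97 (SD, n = 6) for regions with FLAG in K27M-Tag only and 625 bp ± 98.2 (SD, n = 6) for regions with FLAG in all lists. From 10 to 20 the medians were 629 bp ± 33.8, 836 bp ± 57.7 and 1030 bp ± 88.5 in the same order (SD, n = 6 each). From 20 to 40 they were 993 bp ± 78.4, 1273 bp ± 167 and 1606 bp ± 174, and from 40 to 80 they were 1575 bp ± 128, 2180 bp ± 131 and 2361 bp ± 120 (SD, n = 6 each). Members were narrower than each class in 6 of 6 cultures in all 4 bins.

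Averaged over the bins, the log2 difference in breadth was -0.65 ± 0.0381 (SD, n = 6) from regions with FLAG in all lists, a ratio of 0.639. It was -0.41 ± 0.0329 (SD, n = 6) from regions with FLAG in K27M-Tag only, a ratio of 0.753. These too are descriptions without a test, since bins of height do not remove the dependence of overlap on length. Both stayed negative under every alternative run. In the window of 1000 bp they were -0.45 and -0.36, and with no FLAG peak within 1000 bp of a member they were -0.52 and -0.35.

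**Figure D2:**
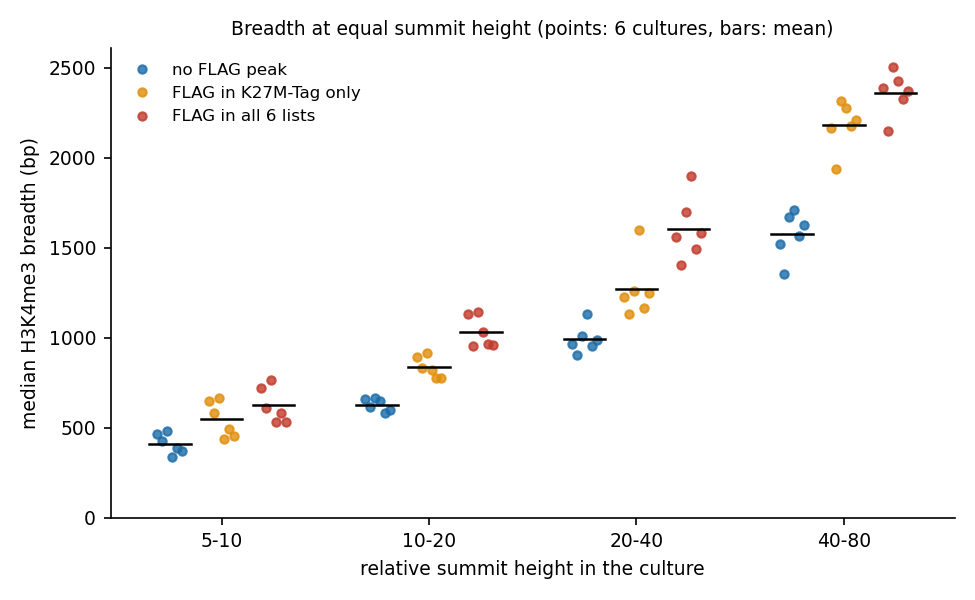
Median H3K4me3 breadth in bp (vertical axis) of members (blue), regions with FLAG in K27M-Tag only (orange) and regions with FLAG in all 6 lists (red), in 4 bins of relative summit height (horizontal axis). Points are the 6 cultures and bars their mean, and in each bin the mean of the members is the lowest, from 412 bp at 5 to 10 up to 1575 bp at 40 to 80.

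The genotypes were then compared at the members, a contrast that the rule did not use. H3K4me3 was broader and its summits were higher in K27M-Tag over most members. Median breadth averaged 1031 ± 26.8 bp over the K27M-Tag cultures and 890.5 ± 50.8 bp over the WT-Tag cultures (mean ± SD, n = 3 of each), 140.2 bp apart and with a ratio of 1.16. The 3 K27M-Tag medians lay above the 3 WT-Tag medians, and the two-sided exact permutation p was 0.1, the smallest that 3 against 3 allows, so this comparison cannot pass 0.05. Median relative summit height averaged 30.2 ± 1.98 for K27M-Tag cultures and 22.7 ± 3.86 for WT-Tag cultures (mean ± SD, n = 3 of each), with a ratio of 1.33, again without overlap (exact permutation p = 0.1). In the top-scoring 50% of peaks the height difference was 13.6 and the genotypes overlapped (exact permutation p = 0.2). WT-Tag replicate 1 was the lowest in both, and without it the height difference was 4.06 in place of 7.49.

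The other classes moved the same way. Regions with FLAG in all lists had a median breadth of 1429 ± 84.1 bp in the K27M-Tag cultures compared with 1204 ± 55.8 bp, and those with FLAG in K27M-Tag only 1948 ± 39.7 compared with 1795 ± 41.7 bp (mean ± SD, n = 3 of each). Over all 21864 shared regions the median log2 change in breadth was 0.14, beside 0.17 for the members, and 86.1% of all regions and 88.3% of members were broader in K27M-Tag. The corresponding medians for summit height were 0.33 and 0.35, with 93.5% of all regions and 91.7% of members higher. When each list was centred on its own median over all shared regions, which takes out this general shift, the members' median change was 0.03 for breadth and -0.04 for height. Over all shared regions the centred medians were -0.0012 and -0.06. Then 57.1% of members and 49.7% of all regions were broader in K27M-Tag, and 42.5% of members and 34.5% of all regions were higher.

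The control side of the lists differed between genotypes as well. The local background recovered at the summit exceeded 1.5 times the background coverage at 10.04%, 12.9% and 12.6% of members for the K27M-Tag libraries, but at 37.1%, 37.0% and 37.3% for the WT-Tag libraries. The labels describe 1 joined input per genotype, which the lists of a genotype may share as a control. Breadth is called against this background, and its part in the breadth change was not tested. Sheared Drosophila chromatin had been mixed into the H3K4me3 samples as a spike-in, and since the lists hold no factor from it, heights of different libraries are not scaled by it.

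**Figure D3:**
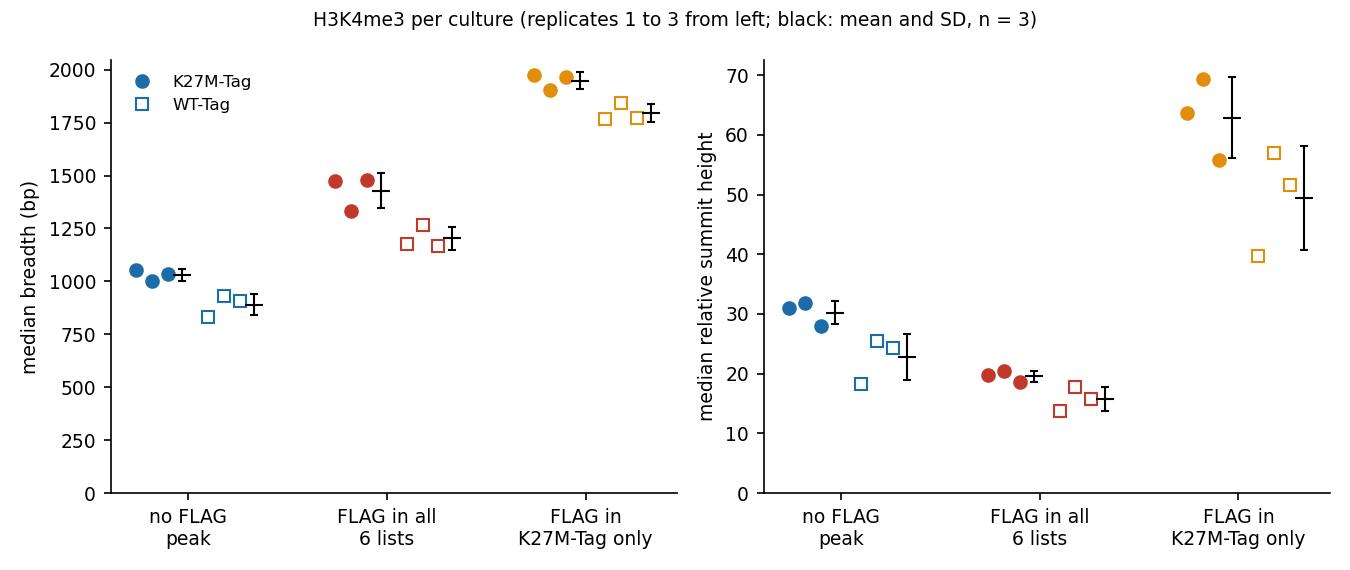
Median H3K4me3 breadth in bp (left) and median relative summit height (right) of each culture for the 3 classes of regions. Filled circles are K27M-Tag and open squares WT-Tag, replicates 1 to 3 from left, with mean and SD (n = 3) in black. Among regions without FLAG every K27M-Tag median, 1002 to 1055 bp and 28 to 31.8, lies above every WT-Tag median.

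Region by region, limma called 431 members for breadth (6.48%) at a Benjamini-Hochberg adjusted p under 0.05, 398 broader and 33 narrower in K27M-Tag. The background is 8.06% of all 21864 regions tested, with 7.51% broader and 0.549% narrower, so the called share of the members was below that of all shared regions. Of regions with FLAG in all lists 9.77% were called, and of those with FLAG in K27M-Tag only 9.31%. The 3 K27M-Tag values all lay above the 3 WT-Tag values at 2710 members (40.7%, background 37.8%) and all below at 116 (1.74%, background 2.08%). With the lists centred, 159 members were called, 109 broader and 50 narrower (background 3.09%, 1.96% broader and 1.13% narrower). The share of broader regions among calls was then 68.6%, compared with 92.3% before. In the top-scoring 50% of peaks 189 of 5601 members were called. The experiment number, which the labels give to 1 culture of each genotype, was also put in the fit as a block. Then 91 of the 6652 members were called, 77 broader and 14 narrower. No share over all regions is given for the top-scoring 50% or for the block.

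For summit height limma called 1189 members (17.9%), 1119 higher and 70 lower in K27M-Tag, against a background of 11.4% of all regions, 10.9% higher and 0.476% lower. The calls covered 7.28% of regions with FLAG in all lists and 8.997% of those with FLAG in K27M-Tag only. Values of the genotypes did not overlap, with K27M-Tag above, at 2581 members (38.8%, background 33.4%), and below at 108 (1.62%, background 1.03%). In the top-scoring 50% of peaks 179 of 5601 members were called, again without a share over all regions. The direction of these calls changed with the scaling of the lists. With the lists centred, 587 members were called, of which 235 were higher and 352 lower, so 40.03% of calls were higher instead of 94.1% (background 6.93%, 2.37% higher and 4.56% lower). In the uncentred fit, limma took the spread as common to all regions of like level. Very small adjusted p-values of single regions therefore rest on that pooled spread, and at 96 of the 1189 called members the values of the genotypes overlapped.

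Both counts also changed when 1 culture was left out, with fewer libraries in the fit and the members found anew. Breadth calls numbered 16, 118 and 49 when K27M-Tag replicate 1, 2 or 3 was left out. They numbered 316, 592 and 200 when WT-Tag replicate 1, 2 or 3 was left out. Height calls numbered 290, 336 and 950 when K27M-Tag replicate 1, 2 or 3 was left out. They numbered 1123, 2208 and 542 when WT-Tag replicate 1, 2 or 3 was left out. The members numbered 6823 to 7871 in these runs, and no share over all regions is given for them.

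Some members were called for both breadth and height. The 187 members called for both were 43.4% of the breadth calls and 15.7% of the height calls. Of these, 169 were higher in both, 18 were lower in both, and in 0 did the directions differ. Both quantities come from the same libraries, and 92.3% of breadth calls and 94.1% of height calls were upward. Like directions were therefore likely beforehand, and no share of joint calls over all regions is given.

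**Figure D4:**
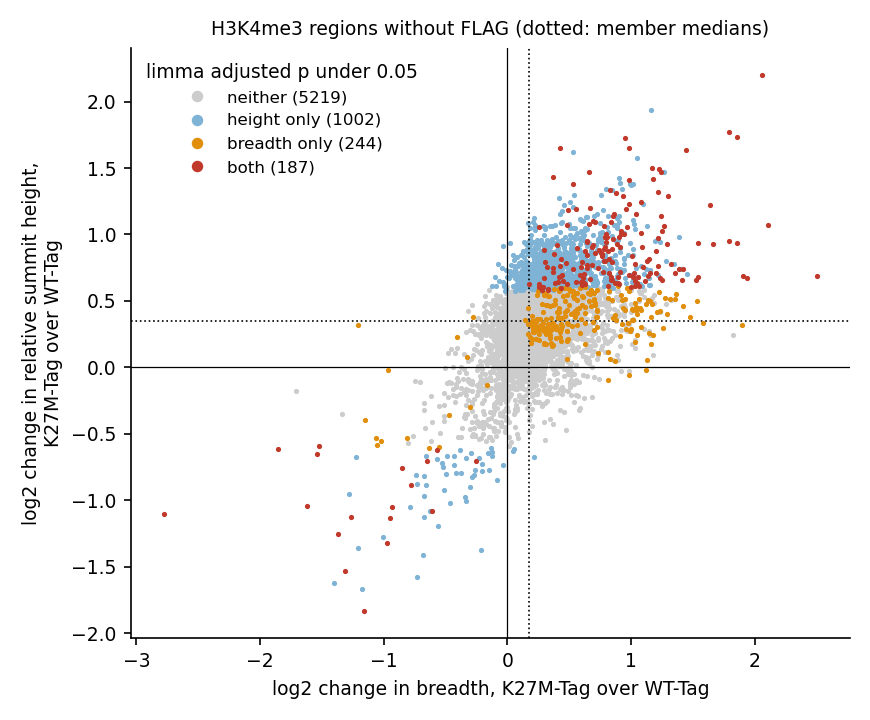
Each point is 1 of the 6652 members, with the log2 change in breadth (K27M-Tag over WT-Tag) on the horizontal axis and that in relative summit height on the vertical axis, coloured by which limma test called it. Dotted lines mark the members' medians of 0.17 and 0.35, and of the coloured points 1002 were called for height only, 244 for breadth only and 187 for both.

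Single members show how far the changes went. The region with the largest gain in breadth was chr12:120085053-120089243, which covered 4135, 4178 and 3493 bp in the K27M-Tag cultures but 542, 680 and 893 bp in the WT-Tag cultures. Its log2 change was 2.51 ± 0.18 (SE; limma adjusted p = 0.0026), although its relative summit height differed less, at 22.8, 25.99 and 18 against 10.03, 15.52 and 16.4. The genotypes did not overlap in either quantity, and the height was called as well (log2 change 0.69, limma adjusted p = 0.0253).

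At chr7:69520716-69522800 both quantities changed together. It covered 1997, 1895 and 1917 bp compared with 378, 501 and 528 bp, with a log2 difference of 2.06 ± 0.14 (SE; limma adjusted p = 0.0026). Its relative summit height was 46.5, 47.3 and 41.7 for K27M-Tag, with 7.96, 10.34 and 11.4 for WT-Tag. This log2 change of 2.203 ± 0.22 (SE) was the largest height gain among the called members. This adjusted p was 4.1e-19 in limma, and 1.1e-13 with the lists centred.

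At chr13:38243618-38244884 the covered length was 1172, 1255 and 1257 bp (K27M-Tag) compared with 241, 255 and 377 bp (WT-Tag), with a log2 change of 2.11 (limma adjusted p = 0.00513). The region chr3:68844793-68846573 covered 1781, 1255 and 1188 bp against 301, 412 and 381 bp, with a log2 change of 1.94 (limma adjusted p = 0.00828). Both sets of values were well apart. The lowest within-list score percentile was 1.18 at the former, near the limit of a list, and 23.4 at the latter. Relative summit heights in WT-Tag were 5.88, 6.55 and 7.1 at the former, and 6.57, 8.28 and 6.79 at the latter. How far the limit of the lists set the short WT-Tag lengths was not tested. The fifth, chr10:14465389-14467175, with 1506, 1353 and 1628 bp against 301, 868 and 241 bp, was close to the threshold (log2 change 1.91, limma adjusted p = 0.0466) and no longer called with the lists centred (0.0736), without the trend (0.0762), with the experiment number as a block (0.071) or without any 1 culture other than WT-Tag replicate 2 (0.0936 to 0.191).

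Losses of breadth were rarer. The largest was as large as the gains named above, and the other named losses were smaller than each of those gains. The region chr15:78991257-78994841 covered 256, 410 and 559 bp in the K27M-Tag cultures but 3462, 2588 and 2121 bp in the WT-Tag cultures (log2 change -2.78 ± 0.30, SE, with limma adjusted p = 0.0094). When WT-Tag replicate 1, the highest of the 6, was left out, the regions were merged anew from the remaining lists. The change at this place was then -1.52 and no longer called (limma adjusted p = 0.0554). The region so found may have other bounds, so -1.52 does not follow from the lengths printed here. The region chr11:95006137-95007833 covered 505, 538 and 464 bp compared with 1386, 1621 and 1619 bp (log2 change -1.62 ± 0.11, SE, with limma adjusted p = 0.0026), with little spread within either genotype.

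The other 3 narrowed regions were chr2:14309924-14311067 (log2 change -1.85, limma adjusted p = 0.0106), chr16:8833292-8834148 (-1.54, 0.0216) and chr11:102805577-102807891 (-1.37, 0.0443). Each lost its call when some single culture was left out. For chr2:14309924-14311067 this was K27M-Tag replicate 1 (limma adjusted p = 0.0584). For chr16:8833292-8834148 it was K27M-Tag replicate 1, K27M-Tag replicate 2 or WT-Tag replicate 3 (0.0529 to 0.0606), and for chr11:102805577-102807891 any of the 6 (0.0539 to 0.105).

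In summit height, the next largest gain was at chr7:76655000-76655941, with 39.6, 43.3 and 31.4 for K27M-Tag compared with 14.5, 8.28 and 8.02 for WT-Tag and a log2 change of 1.94 ± 0.22 (SE). Gains of 1.77, 1.73 and 1.72 on the log2 scale followed at chr6:5339995-5341871, chr11:11935293-11936991 and chr14:37519331-37520475. In each of these the lowest K27M-Tag value was above the highest WT-Tag value.

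The largest loss of height was at chr6:52141894-52142553, a short region with heights of 5.71, 9.39 and 8.29 for K27M-Tag compared with 18.7, 31.4 and 34.3 for WT-Tag and a log2 change of -1.83 ± 0.22 (SE). A second called member, chr6:52152906-52154717, lies close by on the same chromosome and had heights of 7.51, 10.1 and 4.86 against 11.1, 27.6 and 35.2, a log2 change of -1.62. Losses of -1.67 and -1.58 were found at chr6:110595051-110596700 and chr1:111878228-111880222. At chr14:111152324-111154515 the fitted loss was -1.53, but its values overlapped, with 12.6, 7.58 and 8.29 for K27M-Tag beside 12.1, 42.1 and 37.7 for WT-Tag. In all of these regions WT-Tag replicate 1 was the lowest of the WT-Tag values. All 10 height calls named here were kept without any 1 culture and with the lists centred, where the gains were 1.33 to 1.81 and the losses -1.92 to -2.23.

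Strong and wide H3K4me3 also occurred without FLAG. By the authors' deposited score, chr4:124612198-124615339 stood highest within the lists: it reached at least the 99.9th percentile in each of the 6. It covered 2803, 3002 and 2795 bp (K27M-Tag) and 2344, 2771 and 2362 bp (WT-Tag), with relative summit heights of 105.1, 117.3 and 88.6 against 76.5, 97.2 and 88.6, and the nearest FLAG peak of any list lay 1668 bp away. Its breadth and height were not called (limma adjusted p = 0.112 and 0.32). The next were chr7:129275266-129277683, chr10:119645531-119647439, chr2:127033108-127035457 and chr13:101420117-101423065, whose lowest percentiles over the 6 lists were 99.8, 99.63, 99.61 and 99.59.

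The widest member was chr3:53265990-53270203, with 4214, 4052 and 4028 bp (K27M-Tag), 3737, 3931 and 3827 bp (WT-Tag) and a mean of 3965 bp. The members next below the limit had means of 3941.5 bp (chr1:129669305-129673479) and 3931 bp (chr9:111174718-111179284), followed by chr9:121763217-121768042 and chr17:23939233-23943438. The regions without FLAG just outside it had means of 4061, 4174 and 4193 bp. On the narrow side, chr16:73314162-73314360 covered 199, 189 and 189 bp (K27M-Tag) and 190, 191 and 190 bp (WT-Tag), with relative summit heights of 8.64 to 11.9. The region chr9:42537635-42537833 had the same length in every list, and chr2:14309924-14311067 also covered 189 bp in K27M-Tag replicate 3. Whether each list has a shortest peak length, which would bound narrow values and changes from them, was not tested. The other 4 narrowest, chr9:42537635-42537833, chr1:116540673-116540881, chr9:94770516-94770728 and chr19:39129248-39129464, had means of 191 to 204 bp, and none of the 5 was called for breadth or height.

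Members were spread over all 19 autosomes, with some clustering. Their share of the shared regions under 4000 bp was lowest on chromosome 11 (426 of 1608, 26.5%) and highest on chromosome 14 (288 of 798, 36.1%). The next shared region along the chromosome was also a member in 43.7% of cases, compared with 31.7% members among all regions. For regions with FLAG in all lists the figures were 25.04% and 13.4%, and for those with FLAG in K27M-Tag only 18.9% and 16.7%.

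Distance to the nearest FLAG peak varied with the number of peaks in a list and is a description, since the rule used these lists. The median distance from a member was 20.6, 28.4 and 17.6 kb for the K27M-Tag lists, and for the WT-Tag lists 48.5, 33.2 and 31.3 kb. Over all 6 lists together it was 10.6 kb. A FLAG peak lay within 1 kb of 1289 members (19.4%), and 631 (9.49%) were at least 100 kb from every FLAG peak. In 20 members the gap was under 10 bp, so these stood just outside an overlap. The members' breadth varied little with this distance. The median of the mean breadth was 981 bp under 1 kb, 925 bp from 1 to 10 kb, 959 bp from 10 to 50 kb and 971 bp from 50 kb on. Relative summit height had medians of 29.5, 25.1, 26.1 and 21.5 in the same bins.

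The 5 members farthest from FLAG all lay at the start of chromosome 14, the first of them, chr14:3048866-3050209, at 4.81 Mb from any FLAG peak. They belonged to the longest run of consecutive members, 29 shared H3K4me3 regions over 4674 kb from position 3048866 to 7722984 with 0 FLAG peaks in each of the 6 lists. Mean breadths in the run were 785 to 1468 bp, inside the range of the middle 50% of members. Which stretch was longest was read from the data, so the run is described without a test.

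H3K4me3 in the run was uneven between cultures of the same genotype. The median relative summit height of its 29 regions was 15.02, 33.6 and 14.6 for K27M-Tag replicates 1 to 3, and for WT-Tag replicates 1 to 3 it was 9.69, 26.6 and 29.3. Relative to the median of all members in the same culture these were 0.485, 1.06 and 0.520 (K27M-Tag) and 0.528, 1.04 and 1.203 (WT-Tag). Median breadth was 837, 1363 and 912 bp for K27M-Tag, with 455, 1260 and 1295 bp for WT-Tag. K27M-Tag replicates 1 and 3 and WT-Tag replicate 1 were thus low in both quantities, and the other 3 cultures high.

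At chr14:3517708-3519329, for example, heights were 9.01, 25.99 and 9.43 for K27M-Tag, with 8.305, 23.1 and 24.1 for WT-Tag. Among the 20 members with the largest spread of centred height within genotypes, 10 lay in this run. In the run 0 regions were called by limma for breadth and 0 for height. A local background above 1.5 times the coverage was found at 3.45%, 6.90% and 3.45% of its summits for K27M-Tag but at 51.7%, 58.6% and 65.5% for WT-Tag. Its part in the levels was not tested.

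**Figure D5:**
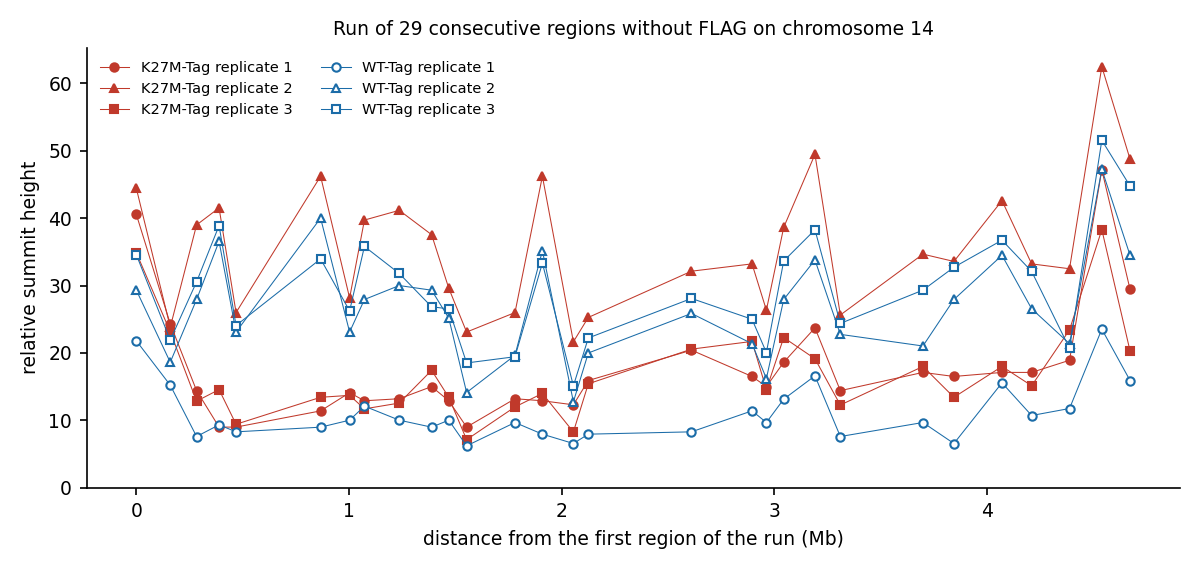
Relative summit height (vertical axis) of the 29 consecutive members at the start of chromosome 14, by distance in Mb from the first of them, with 1 line per culture. K27M-Tag replicate 2 and WT-Tag replicates 2 and 3 run above the other 3 cultures over most of the stretch, with medians of 33.6, 26.6 and 29.3 against 15.02, 14.6 and 9.69.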

How the data were processed

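Each of the 12 libraries has 1 deposited narrowPeak list. Per the submitters' processing notes, BWA 0.7.17-r1188, MACS2 2.2.7.1, bedtools 2.29.2 and the builds mm9 and dm6 were used, and the role of each is not given. The authors' score equals 10 times −log10 q, and it served only for ranking and filtering inside 1 list. Fold enrichment, a ratio at the summit, and −log10 p and q were taken as deposited. Each list ends at its own limit, so breadth moves with depth and control. The 2 joined inputs were not analysed here.

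Summit pileup and local background were recovered as the pair whose ratio, after 1 is added to each, equals the fold and whose Poisson tail equals the p (relative tolerance 0.0001). This succeeded for 100% of peaks of every list. The form is inferred from the values. Breadth (log2 covered bp) and height (log2 highest summit pileup over background coverage) were fitted with limma 3.58.1 in R 4.3.3 (trend, Benjamini-Hochberg adjustment over 21864 regions, threshold 0.05). Other tests were exact permutations in Python 3.11.15. The scripts were tested on simulated data. Whether cultures came from separate litters is not stated, so p-values speak only of these cultures. In the main height fit, limma p-values rest on a spread pooled over regions of like level, not on the spread at the single region.

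Members, lists and rules were chosen with earlier results of these data known. Named regions were, outside chromosome 18, the 5 with the highest minimum score percentile, the 5 widest, the 5 narrowest, the 5 farthest from FLAG, and up to 5 per direction with the largest called change in breadth and in height. Breadth at equal height, counts of regions without overlap of the genotypes, height not divided by background, and the chromosome 14 run were added after seeing the data. Planned gene lists were not used because the gene table at hand is of another build.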

Additional observations from a re-analysis of the deposited data

Results flagged for a closer look

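Chromosome X lies outside the rule, which takes chromosomes 1 to 19, and its regions appear in no comparison above. By the same criteria it held 656 shared H3K4me3 regions under 4000 bp, and 466 of them (71.0%) had no FLAG peak in any list. On the autosomes the share was 31.7%, and between 26.5% and 36.1% on single chromosomes. FLAG in all 6 lists was found at 3 regions of chromosome X and FLAG in K27M-Tag only at 40. K27M-Tag replicates 1 to 3 had 643, 402 and 811 FLAG peaks on chromosome X, compared with 124, 223 and 105 for WT-Tag replicates 1 to 3, which is 0.225% to 0.919% of a list. H3K4me3 peaks on chromosome X numbered 910 to 1001, or 2.59% to 3.06% of a list. WT-Tag replicate 3, the male culture, had the fewest FLAG peaks there, while its H3K4me3 count of 910 was also the lowest. No test was made.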

How the results depend on the processing

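The lists, not reads, set what can be seen: a region without a FLAG peak may hold FLAG below the limit of a list, and if the joined input of each genotype served as control, it cannot be told apart from genotype. The number of members was 10081 with equal list lengths, 5363 to 8048 under the other settings for all 6 cultures, and 6823 to 7871 when 1 culture was left out. Breadth calls were 189 in the top-scoring 50% of peaks and 159 with lists centred, and 16 to 592 when 1 culture was left out. Height calls were 179 in the top-scoring 50%, 587 with lists centred, and 290 to 2208 when 1 culture was left out. Shares over all regions are given above only for the main and the centred fits. The median differences between genotypes kept their direction, at 109 to 158.8 bp and 4.06 to 9.45 in relative height when 1 culture was left out, and the height difference was 13.6 in the top-scoring 50% (exact permutation p = 0.2).

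Against regions with FLAG in all lists, the breadth difference reversed to 0.39 in the window of 1000 bp. The height difference reversed to -0.10 with no FLAG within 1000 bp, and was 0.0034 in the top-scoring 50% and 0.081 with no breadth limit. Other values that moved by over 1.5 times were -0.21 (breadth) and 1.02 (height) with equal list lengths and 1.65 (height) in the window. Against regions with FLAG in K27M-Tag only they were -0.52 and -0.10 in the top-scoring 50%, -0.63 (height) with equal list lengths, and -0.64 and -0.59 in the window. The cause was not tested. When 1 culture was left out, differences from regions with FLAG in all lists were -0.53 to -0.34 in breadth and 0.35 to 0.69 in height. In breadth at equal height they were -0.64 to -0.61. From regions with FLAG in K27M-Tag only the differences were -1.04 to -0.87, -1.23 to -0.99 and -0.43 to -0.35 in the same order.

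The replicate number equals an experiment id that the labels give to 1 culture of each genotype, without saying whether it marks a shared day or litter. Deviations of cultures with the same number correlated at 0.029, 0.034 and -0.0096 for breadth and 0.097, 0.18 and -0.041 for height. With the number as a replicate block, 91 members were called for breadth (77 broader, 14 narrower) and 1001 for height (938 higher, 63 lower). No share over all regions is given for these counts. The genotype differences of the medians then had an exact sign permutation p of 0.25. Of the 20 named changes, the gain at chr10:14465389-14467175 was no longer called (limma adjusted p = 0.071).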
